A study of Mus musculus with 2 samples.

Results

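The insulin-like growth factor (IGF) axis was described in M210B4, a stromal cell line established from mouse bone marrow, through 10 genes: the ligand gene Igf1, the receptor genes Igf1r and Insr, the binding protein genes Igfbp2, Igfbp3, Igfbp4, Igfbp5, Igfbp6 and Igfbp7, and Pappa. They are 10 of 22180 genes that the array names without ambiguity. The genes were chosen by symbol, with earlier results of these data known, and each was to be represented by its brightest probe set; every one of the 10 has a single probe set, so that choice removed nothing. Cells had been kept for 24 h in medium with 2% serum, in one culture with an antibody that activates CD84, a self-binding surface receptor of the SLAM family, and in the other with an isotype control antibody (IgG1). Both cultures were of the same line with no other agent named, and RNA of each was read on 1 array of the Affymetrix Mouse Gene 2.0 ST type, which uses 1 colour. With 1 array per condition there is no standard error, no test and no p-value, and every difference below is between 2 arrays.

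IGF-1 and IGF-2 are small secreted hormones that signal through the IGF-1 receptor, a tyrosine kinase closely related to the insulin receptor, and in many tissues they favour growth and survival. Outside the cell most IGF is held by binding proteins, which prolong its life and withhold it from the receptor. The protease PAPP-A, the product of Pappa, cuts IGFBP-4 and IGFBP-5 and so frees IGF near the cell. Marrow stromal cells are a known local source of IGF-1 and of several binding proteins.

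Igfbp5 differed most among the 10 genes, followed by Pappa and Igf1, all 3 higher after anti-CD84. The values are log2 expression values, and a gene was called detected when it lay above 4.84 on at least 1 array, the 95th percentile of 1394 olfactory and vomeronasal receptor genes, which are taken as silent in stroma. By this working level 9 of the 10 genes were detected, all 9 on both arrays, and Igfbp3 was below it on both. Of the 9, 2 were at least 1.5-fold higher (Igfbp5 and Pappa), 0 were 1.5-fold lower and 7 lay within 1.5-fold. Among all 13284 detected genes, 10.7% were higher by this fold or more and 6.4% lower, a background that would put about 1 of 9 genes on the higher side. By any amount, 6 of the 9 were higher, and 3 were lower, against 59.1% and 40.9% of all detected genes. The median difference of the 9 was 0.23 on the log2 scale, and that of all detected genes was 0.09. With the differences centred on that median, with a loess curve removed or after quantile normalization, Igfbp5 alone was past 1.5-fold, so the call of Pappa depended on the scaling. Markers of cell types differed on the same arrays. Of 12 detected stromal markers 2 were 1.5-fold higher and 0 lower, and of 3 detected haematopoietic markers 1 was higher and 0 lower. Of 3 detected endothelial markers 0 were higher and 2 lower, and of 4 detected epithelial and liver markers 0 were higher and 1 lower. Of 2 detected adipocyte markers and 1 osteoblast marker 0 passed 1.5-fold. The haematopoietic one was below the detection level after IgG1, and all the lower ones after anti-CD84. These calls use the values below that level as given. Counted from the level, the haematopoietic Csf1r was at least 1.01-fold higher and the endothelial Pecam1 at least 1.11-fold lower. Neither is thus shown to reach 1.5-fold. Cdh5 and Cdh1 were at least 1.65-fold and 1.79-fold lower. At mean levels under 6, where those markers lay, 25.5% of detected genes were past 1.5-fold in either direction. The part of the markers in the differences of the IGF axis genes was not tested.

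**Figure D1:**
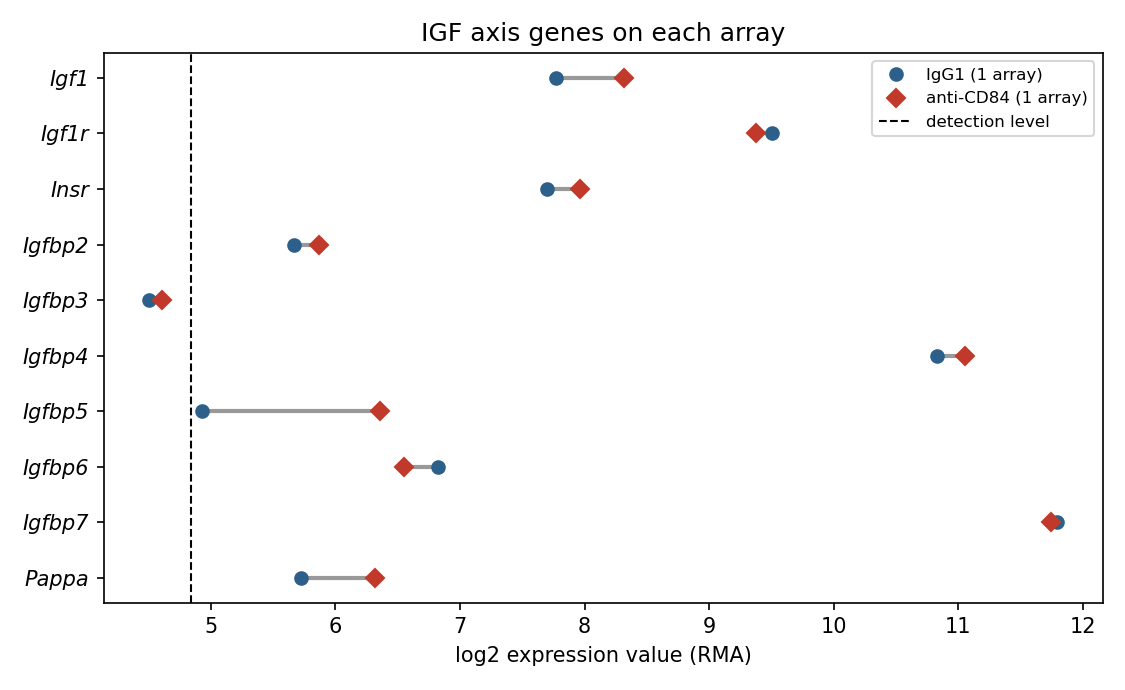
Log2 expression value (horizontal axis) of each of the 10 genes (rows) on the IgG1 array (blue circles) and on the anti-CD84 array (red diamonds), joined by a grey line, with the detection level of 4.84 dashed. Igfbp5 has the longest line, from 4.93 to 6.36, and Igfbp3 lies left of the dashed line on both arrays.

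The promoters of Igfbp5, of Igf1 and of Igfbp4 are shown because Igfbp5 and Igfbp4 encode the PAPP-A substrates, with unlike differences, and Igf1 encodes the ligand they hold. Each runs 5′ to 3′ on the gene's strand, from 250 bases before to 50 after the start, and comes from RefSeq (GRCm38.p6): Igfbp5 at chr1:72874816-72875115 on the minus strand, Igf1 at chr10:87860861-87861160 and Igfbp4 at chr11:99040994-99041293, both on the plus strand. Capitals mark matches on either strand to short motifs. They were the TATA box, TATAAA, the GC box of Sp1, GGGCGG, the CCAAT box, the STAT site, TTCNNNGAA, and the FoxO site, TGTTTAC. The run TATTTAA, which is TATA-like, was searched after the Igfbp5 sequence had been seen. No motif overlaps another in these windows.
Igfbp5: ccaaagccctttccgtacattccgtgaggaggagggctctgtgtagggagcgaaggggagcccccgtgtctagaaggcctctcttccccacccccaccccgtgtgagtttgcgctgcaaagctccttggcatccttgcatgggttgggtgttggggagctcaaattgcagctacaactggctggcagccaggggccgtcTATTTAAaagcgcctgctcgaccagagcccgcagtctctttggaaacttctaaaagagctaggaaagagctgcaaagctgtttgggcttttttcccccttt
Igf1: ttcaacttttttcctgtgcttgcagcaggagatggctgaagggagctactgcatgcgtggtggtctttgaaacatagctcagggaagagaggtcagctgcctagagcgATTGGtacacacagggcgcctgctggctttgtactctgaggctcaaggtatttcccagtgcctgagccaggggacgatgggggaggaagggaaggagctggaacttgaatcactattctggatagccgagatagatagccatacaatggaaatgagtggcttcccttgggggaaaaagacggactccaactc
Igfbp4: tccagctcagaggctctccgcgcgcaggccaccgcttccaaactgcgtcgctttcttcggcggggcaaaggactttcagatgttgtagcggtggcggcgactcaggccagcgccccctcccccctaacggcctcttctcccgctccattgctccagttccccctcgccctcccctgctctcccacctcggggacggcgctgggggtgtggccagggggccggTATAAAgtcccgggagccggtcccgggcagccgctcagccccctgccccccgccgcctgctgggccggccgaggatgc

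The Igfbp5 window held TATTTAA with its first base 51 bases before the start, and none of the other letters. The run is found in 4.51% of the 32851 promoters of the table. Since it was picked from this window, that share does not measure how unusual it is there. The Igfbp4 window held TATAAA at position -28, which 13.6% of all promoters do somewhere. Igf1 had a CCAAT match at position -142 (37.4% of all promoters). The GC share was 56.3% for Igfbp5, 52.3% for Igf1 and 71.3% for Igfbp4, and the median of all promoters was 52.7%. Of the 10 genes, 8 have a promoter in the table (Igfbp2 has 2). GGGCGG was found in those of Igf1r, Igfbp7 and 1 of the 2 of Igfbp2, and 35.7% of all promoters hold it. No window of the 8 genes held the STAT or the FoxO letters, which 8.3% and 3.65% of all promoters do. These are matches of letters and not sites of binding.

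Among the ligand and receptor genes, Igf1 was higher after anti-CD84 and the receptors lay close to their control values. Igf1 was at 8.32 after anti-CD84 and 7.77 after IgG1, which is 1.46-fold higher, a difference of 0.55 and just short of the 1.5-fold threshold of 0.58. Igf1r, the receptor through which IGF-1 mainly signals, was at 9.38 and 9.50, a difference of -0.12. Insr, which encodes the insulin receptor, also found in hybrid receptors with the IGF-1 receptor, was at 7.96 and 7.70, or 1.20-fold higher. Ligand and insulin receptor were thus on the higher side and the IGF-1 receptor on the lower, and all 3 were well above the detection level. Of the 3580 detected genes with a mean level of 8 to 10, 11.0% had a difference at least as large as that of Igf1 in either direction and 71.3% one as large as that of Igf1r. For Insr this share was 52.7% of the 4621 genes at 6 to 8.

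Pappa was the other gene past 1.5-fold. It was at 6.32 after anti-CD84 and 5.72 after IgG1, which is 1.51-fold higher, a difference of 0.60. The difference was 0.51 when centred or after quantile normalization and 0.54 with the loess curve removed. At its level of 6 to 8, 17.4% of genes differed by as much, so the size of Pappa is common there.

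The 6 binding protein genes did not move as one. Igfbp5 encodes a binding protein that also attaches to extracellular matrix and is made by bone cells. It was at 6.36 after anti-CD84 and 4.93 after IgG1, a difference of 1.43 and 2.69-fold higher. The control value lay 0.09 above the detection level, in a range where arrays differ most, and the difference therefore sets a clear signal against a faint one. Among the 4251 detected genes with a mean level under 6, the central 95% of differences ran from -1.09 to 1.08, and 54 genes (1.27%) differed by at least as much as Igfbp5 in either direction. From the highest difference downward Igfbp5 was number 39 of all 13284 detected genes and number 16 of the 11761 that both arrays measured. The genes were chosen with earlier results known, and Igfbp5 is the largest of the 9. The share and the ranks therefore do not measure how unusual it is. The rank of 16 also rests on the control value lying 0.09 above the level. At 2-fold, which 1.98% of detected genes reached on the higher side and 1.43% on the lower, Igfbp5 was the only one of the 9.

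The other detected binding protein genes lay within 1.5-fold. Igfbp4, the main substrate of PAPP-A, was at 11.05 and 10.83, or 1.17-fold higher, and 37.7% of the 832 genes at a level of 10 and over differed by as much. Igfbp2, a binding protein with an integrin-binding motif, was at 5.87 and 5.66, or 1.15-fold higher. At its level of under 6, 68.1% of detected genes differed by as much. In RefSeq, Igfbp2 and Igfbp5 are neighbouring protein-coding genes on chromosome 1, with differences of 0.21 and 1.43. Both were higher, but by unlike amounts.

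Igfbp6, which prefers IGF-2 over IGF-1, was at 6.55 after anti-CD84 and 6.82 after IgG1, or 1.20-fold lower. Igfbp7, a secreted relative with low affinity for IGF, was at 11.75 and 11.79, a difference of -0.05. Igfbp3, the main carrier of IGF in blood, was at 4.61 and 4.51, under the detection level on either array, and no fold can be given. Of the 5 detected binding protein genes, 3 were thus on the higher side and 2 on the lower. Differences as large as that of Igfbp6 were found in 52.2% of detected genes at its level. For Igfbp7 this share was 82.6%. The signs of all 9 detected genes were the same under each scaling tried. That could hardly be otherwise, since centring took 0.09 off each difference and the smallest positive one, of Igfbp2, was 0.21.

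**Figure D2:**
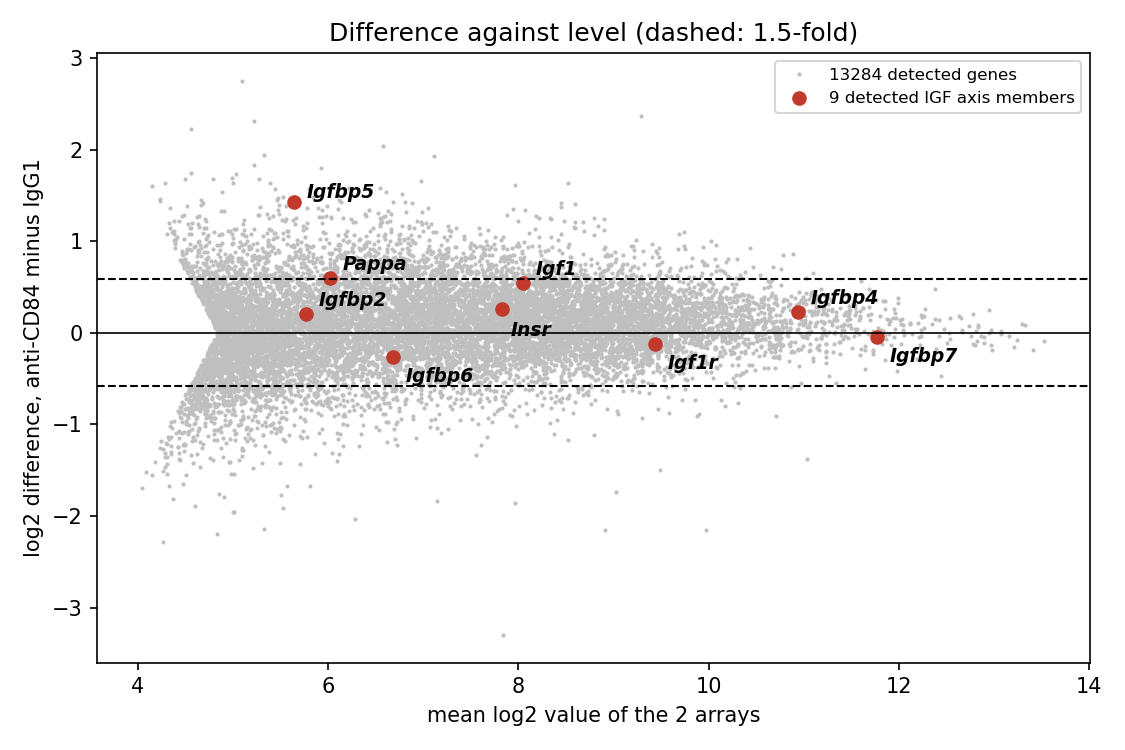
Log2 difference, anti-CD84 minus IgG1 (vertical axis), against the mean log2 value of both arrays (horizontal axis) for the 13284 detected genes (grey) and the 9 detected IGF axis genes (red), with dashed lines at 1.5-fold. Igfbp5 at 1.43 lies at the upper edge of the grey cloud, Pappa at 0.60 and Igf1 at 0.55 lie next to the upper dashed line, and the other 6 lie between the lines.

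The remaining genes of the axis were counted from 7 lists ordered by role, which hold 96 different genes. Of these 80 have a probe set of their own and 68 were detected, of which 11 were higher by 1.5-fold or more and 2 lower, with a median of 0.16. Those counts, and those of each list below, stand beside 10.7% and 6.4% of all detected genes. With the differences centred the counts were 9 and 3, after quantile normalization 8 and 2, and with all probe sets of a gene averaged 7 and 2.

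Of the other ligands, receptors and carriers, 3 of 10 measured genes were detected and 0 passed 1.5-fold. Igf2, the fetal ligand, was at 5.09 after anti-CD84 and 5.62 after IgG1, or 1.44-fold lower. When centred its difference was -0.61, past 1.5-fold. With the loess curve removed it was -0.53 and after quantile normalization -0.55, both within 1.5-fold. Its mean level was under 6, where 25.5% of detected genes were past 1.5-fold in either direction. Igf2r, the receptor that clears IGF-2, was at 9.20 and 8.75, or 1.37-fold higher. The third, named after its value was seen, was Stc2, an inhibitor of PAPP-A, at 5.98 and 5.66. Igfbp1 (4.63 and 4.10), Igfals (4.25 and 4.26), Pappa2 (4.23 and 4.67), Stc1 (4.28 and 3.73), Ins2, Insrr and Igfbpl1 did not reach the detection level on either array. Apart from Igf2, Igf2r and Stc2 the group was thus not detected, and Igf1 and Igf2 lay on opposite sides of their control values.

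Some intracellular partners of the receptors were past 1.5-fold, in lists to be read beside 10.7% higher and 6.4% lower among all detected genes. Among receptor adaptors and attenuators 3 of 19 detected genes were 1.5-fold higher, 0 were lower, and the median was 0.10. Socs2, which restrains growth hormone signalling, was at 9.89 after anti-CD84 and 8.92 after IgG1, or 1.95-fold higher, while its dimmer probe set had a difference of -0.10 and the mean of the pair was 0.43. Grb10, an adaptor that dampens the insulin and IGF-1 receptors, was at 8.67 and 7.88, or 1.73-fold higher. Irs1, the docking protein of both receptors, was at 7.48 and 6.79, or 1.61-fold higher. Its dimmer probe set did not reach the detection level on either array. In the kinase cascade, 1 of 16 detected genes was 1.5-fold higher and 2 were lower, with a median of 0.13. Foxo3 was 1.58-fold higher (7.35 against 6.69), and under each of the 3 scalings it was within 1.5-fold. Foxo4, a transcription factor that Akt keeps out of the nucleus, was 1.58-fold lower (5.28 against 5.94), and Foxo6, of the same family, 1.66-fold lower (4.98 against 5.71), where the value after anti-CD84 was near the detection level. Foxo1, named after its value was seen, was 1.20-fold higher (7.46 against 7.19), so the 4 forkhead genes of the list lay on both sides. Foxo4 and Foxo6, on the lower side, had mean levels under 6, where 25.5% of detected genes were past 1.5-fold in either direction.

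Among the proteases that can cut binding proteins, and their inhibitors, 3 of 15 detected genes were 1.5-fold higher and 0 lower (median 0.21). C1s1, a complement protease reported to cut IGFBP-5, was at 5.67 after anti-CD84 and at 3.45, below the detection level, after IgG1, which makes it at least 1.78-fold higher counted from that level. A further C1s1 probe set stayed below it on both. Mmp13, a collagenase, was at 6.38 and 4.07, or at least 2.91-fold higher. Noise in the brighter value is not part of such a bound. Adam19, a membrane metalloprotease, was 1.54-fold higher (7.39 against 6.76), and under each of the 3 scalings it was within 1.5-fold. With all probe sets of a gene averaged, Adam19 had a difference of 0.33 and C1s1 was no longer detected, which left Mmp13 alone of the 3 past 1.5-fold. For C1s1 and Mmp13, unlike Igfbp5, the IgG1 array gave no detected level.

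Some genes encode proteins that carry an IGFBP-type domain without being classical binding proteins. Of 12 such genes detected, 3 were 1.5-fold higher and 0 lower (median 0.17). Htra1 and Htra3, among the 12, are counted with the proteases too. Kazald1, a secreted protein of bone, was at 6.78 after anti-CD84 and 5.89 after IgG1, or 1.86-fold higher. Ccn3 was 1.79-fold higher (8.32 against 7.48) and Ccn5 1.62-fold higher (11.11 against 10.42), both matrix-associated members of the CCN family. In the growth hormone list 2 of 5 detected genes were 1.5-fold higher and 0 lower (median 0.32). Stat5b, through which growth hormone drives Igf1 in liver, was at 8.34 and 7.42, or 1.89-fold higher. The other was Socs2, counted above with the adaptors too, and with its probe sets averaged its difference of 0.43 was within 1.5-fold. Igf2bp3, which binds Igf2 mRNA, was the only detected gene of its list, at 4.79 and 4.91.

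**Figure D3:**
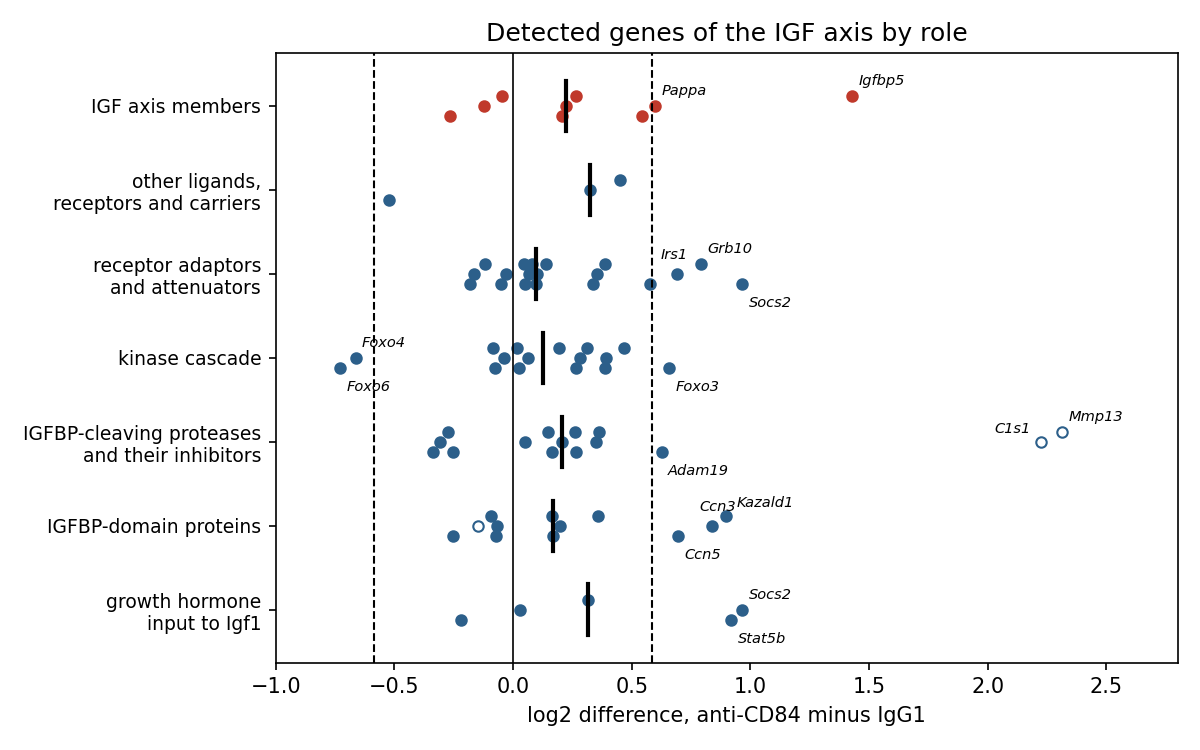
Log2 difference, anti-CD84 minus IgG1 (horizontal axis), of the detected genes of each role (rows), with the 9 IGF axis members in red and other genes in blue, and 1 list with a single detected gene left out. Filled points passed the detection level on both arrays and open points on 1, thick bars are medians, and dashed lines mark 1.5-fold; C1s1 and Mmp13 lie furthest to the right as open points, and Igfbp5 is the furthest filled point.

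The label of a stromal line was set against marker genes. Of 14 stromal markers, among them Col1a1, Col1a2 and Col3a1, 11 passed the detection level on both arrays, with medians of 10.25 after anti-CD84 and 10.33 after IgG1, while Lepr and Eng were below it on both and Thy1 was above it after IgG1 alone. The mean of the 14 went the other way, 9.70 against 9.50. The stromal markers past 1.5-fold, named like the other marker genes below after their values were seen, were Cxcl12, at 10.29 and 9.19 or 2.15-fold higher, and Pdgfra, at 10.21 and 9.29 or 1.89-fold higher. Pdgfrb was 1.39-fold higher. Haematopoietic markers were above it on both arrays in 2 of 11 cases (medians 4.10 and 4.38), with Ptprc and Cd79a below it on both. For endothelial markers this was 1 of 6 (4.30 and 4.88), for epithelial and liver markers 3 of 7 (4.73 and 4.93), for adipocyte markers 0 of 5 (4.25 and 3.70) and for osteoblast markers 1 of 5 (4.05 and 4.62). Some markers of other cell types were above the level after IgG1 and below it after anti-CD84. Cdh5, a junction protein of endothelium, was at 4.61 after anti-CD84 and 5.56 after IgG1, or at least 1.65-fold lower. Pecam1 was at 4.32 and 4.99, or at least 1.11-fold lower. Cdh1, the epithelial cadherin, was at 4.73 and 5.68, or at least 1.79-fold lower. The adipocyte markers Plin1, at 4.61 and 5.11, and Fabp4, at 4.56 and 5.13, were also below the level after anti-CD84 alone. Csf1r, a haematopoietic marker, went the other way, at 4.86 and 4.14, or at least 1.01-fold higher. The endothelial and epithelial or liver markers above the level on both arrays lay within 1.5-fold. Emcn was at 5.19 and 5.19 and Krt18 at 5.16 and 4.93. Krt8 was at 5.27 and 5.42 and Apoa1 at 5.23 and 5.37. In RNA of whole cultures read on 1 array each, fewer cells with a transcript, less of it per cell and noise between arrays cannot be told apart.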

How the data were processed

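RNA of 2 cultures, 200000 cells each per the labels' protocols, was hybridised to 1 array per condition. The deposited values are log2 expression values, 1 for each of 41345 probe sets and array. Per the submitters' processing notes the authors used RMA and Partek; the sources used here give no version, setting, genome build or list of arrays normalized together. The log2 scale was inferred from the values, whose medians were 4.87 (anti-CD84) and 4.88 (IgG1). RMA tends to compress differences of dim probe sets. Of the probe sets, 23521 have 1 symbol in GEO's platform annotation, 1814 have several and were not used for genes, and 16010 are unnamed there.

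The difference is anti-CD84 minus IgG1. The members and lists were chosen with earlier results of these data known. Named were all 10 members and, per list of other axis genes, those detected and past 1.5-fold, or the 2 with the largest absolute difference where none was. Shares of genes with differences as large were taken within levels under 6, 6 to 8, 8 to 10, and 10 and over. The 8 alternatives were the 3 scalings (centring, a loess curve of span 0.4, quantile normalization), no level filter, a level of 6.88 (the 75th percentile of all values), both arrays above the level, the mean of a gene's probe sets, and values floored at the level. The counting step was checked on simulated arrays with large planted changes and less spread than the real arrays show. That check covered a 2-fold count alone and says nothing of the differences reported here. Protein sequences were not analysed here. The tools were limma 3.58.1 in R 4.3.3 for the loess and quantile steps, and pandas 2.3.3, numpy 2.4.6 and matplotlib 3.10.9 in Python 3.11.15.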

Additional observations from a re-analysis of the deposited data

How the results depend on the processing

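The number of arrays limits the precision, and leaving out a replicate was not possible with 1 array per condition. No paired analysis was possible because each condition has 1 array and the labels give no replicate numbers. The count of IGF axis genes at least 1.5-fold higher, 2 as reported, was 1 when differences were centred, with the loess curve removed and after quantile normalization, since Pappa fell short. At the level of 6.88 it was 0 of 5, since Igfbp5 and Pappa were left out. The count of lower genes was 0 under all 8 alternatives. The median of the IGF axis genes ran from 0.14 (centred) to 0.23. Igfbp5 ran from 1.34 to 1.43 under the 7 alternatives that kept it, and Igf1 from 0.45 to 0.55 under 8.

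Over all detected genes, 1427 were 1.5-fold higher and 850 lower, so 62.7% of them were higher. That share was 47.6% when centred, 53.8% with the loess curve removed and 51.4% after quantile normalization. Without a level filter 1575 genes were 1.5-fold lower and 302 were 2-fold lower. At the level of 6.88, 742 genes were 1.5-fold higher and 219 lower, and 113 were 2-fold higher and 29 lower. With both arrays above the level, 457 were 1.5-fold lower, 171 were 2-fold higher and 61 were 2-fold lower. With values floored, 548 were 1.5-fold lower and 76 were 2-fold lower. Among other named genes, Irs1 was within 1.5-fold after quantile normalization (0.58) and with its probe sets averaged (0.45). Averaging also brought Adam19 to 0.33 and Socs2 to 0.43, and left C1s1 undetected.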

Other observations

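Some genes of the axis share a probe set with another symbol and entered no count. The probe set of H19, the non-coding neighbour of Igf2, and Mir675 was at 4.12 after anti-CD84 and 4.26 after IgG1, below the detection level on both arrays. That of Igf2bp1 and Mir3063 was at 3.97 and 4.37, also below it. The probe set of Gsk3a, a kinase that Akt inhibits, and 9130221H12Rik was at 9.52 and 9.68. A probe set named for Irs2 and 9530052E02Rik was at 4.40 and 4.08, while the probe set of Irs2 alone was at 6.96 and 6.92.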
